A study of Octopus bimaculoides with 6 samples.

Results

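Among 38556 coding transcripts of the California two-spot octopus, 14 were chosen for a high level in every library from the end of the first left arm (L1) and a low level further in. Octopus arms are muscular hydrostats, in which muscle fibres packed in several directions around a central axial nerve cord give both movement and support. New, small suckers are added at the arm tip as the arm grows, and a lost arm end regenerates. Every arm piece sampled here held skin, muscle, nerve and suckers.

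The 14 transcripts were selected on the deposited TPM (the transcript abundance unit of the files, an estimated read count divided by the effective length of the transcript and scaled to the same total in each library). Each had at least 5 TPM in 3 arm end libraries, and its (TPM + 1) in each of these was at least 3 times that in both inner libraries. The arm end libraries were a transverse section 1.5 cm from the tip of an adult male (distal section), the last 1.5 cm of the arm of another adult male (OB2, male tip) and the same piece of an adult female (OB9, female tip). The inner libraries were sections of the first male at 3.5 cm (medial section) and 5.5 cm (proximal section) from the tip. The remaining library, a whole hatchling at 30 days post fertilization (dpf), took no part in the choice. The labels give no genotype, and no treatment other than ethanol before collection.

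Each position and animal was 1 library, so no difference between 2 libraries has a replicate check. The 3 arm end and 2 inner libraries were not tested against each other, because these values chose the members and the libraries share an animal. The distal, medial and proximal sections came from 1 animal and the tips from 2 others, so the position of the tips cannot be told apart from the animal, nor the female tip from its sex. In pieces of whole arm, fewer cells of a type and less RNA per cell cannot be told apart either. The estimated counts summed to between 3161353 in the distal section and 4962432 in the male tip among the arm end libraries, to 6373192 and 6524632 in the medial and proximal sections and to 9081923 in the hatchling. Non-coding RNAs took 61.6% to 63.5% of the TPM in the arm end libraries and 63.4% in the hatchling, against 39.8% and 47.3% in the medial and proximal sections, so that the TPM left to coding transcripts was lower at the arm end. Neurons were represented in all libraries, with complexin, a regulator of synaptic vesicle fusion, at 62.9 to 120 TPM in the arm end libraries against 75.7 and 63.2 TPM in the medial and proximal sections. Protein piccolo, which organizes the presynaptic active zone, was higher at the arm end, with 8.85, 22.8 and 20.7 TPM for Ocbimv22016350m in the distal section, male tip and female tip, against 4.04 and 5.88 TPM in the medial and proximal sections. Its other target, Ocbimv22016351m, had 9.92, 21.1 and 19.3 TPM at the arm end, against 3.41 and 5.19 TPM in the inner sections. Synaptotagmin-1, the calcium sensor of synaptic release, overlapped between the groups in both of its targets (Ocbimv22021174m and Ocbimv22021175m). Ocbimv22021175m had 99.4, 22.3 and 26.2 TPM in the distal section, male tip and female tip, against 51.3 and 44.1 TPM in the medial and proximal sections. Both tips were thus below both inner sections in this target, opposite to piccolo, and only the distal section was above them. In Ocbimv22021174m the distal section was above both inner sections, the male tip between them and the female tip just below both. The part of neuronal RNA in the members' levels was not tested. The names used here include no muscle, skin or blood cell marker, so those tissues were not checked.

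The 14 transcripts were 0.0363% of all coding targets, or 14 of the 8949 that had at least 5 TPM in all arm end libraries. The same limits were passed by 21 of 1771 non-coding targets (1.19%). With the libraries exchanged, so that the medial and proximal sections had at least 5 TPM and were 3 times higher than each arm end library, 42 coding transcripts (0.109%) passed. Coding targets held 36.5% to 38.4% of the TPM at the arm end, against 60.2% and 52.7% in the medial and proximal sections. The exchanged count is given on deposited TPM only, so the 42 and the 14 do not rank the 2 directions. The copy of the study's annotation used here is shortened and names 561 of the 38556 coding targets. None of the 14 members is among them, so no function is given for any member, and the gene lists (patterning factors, developmental signals, cell division and others) could not be applied to them. They are reported by their identifiers only, and their sequences were not used here.

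The median level of the members was 6.98 TPM in the distal section, 11.1 TPM in the male tip and 9.75 TPM in the female tip, against medians of 0 and 0.00015 TPM in the 2 inner sections. These values chose the members and are given as a description. Of the 14, 9 were higher in both tips than in the distal section and 2 were lower in both tips, while 43.3% of the 8949 coding transcripts at 5 TPM or more were higher in both tips.

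**Figure D1:**
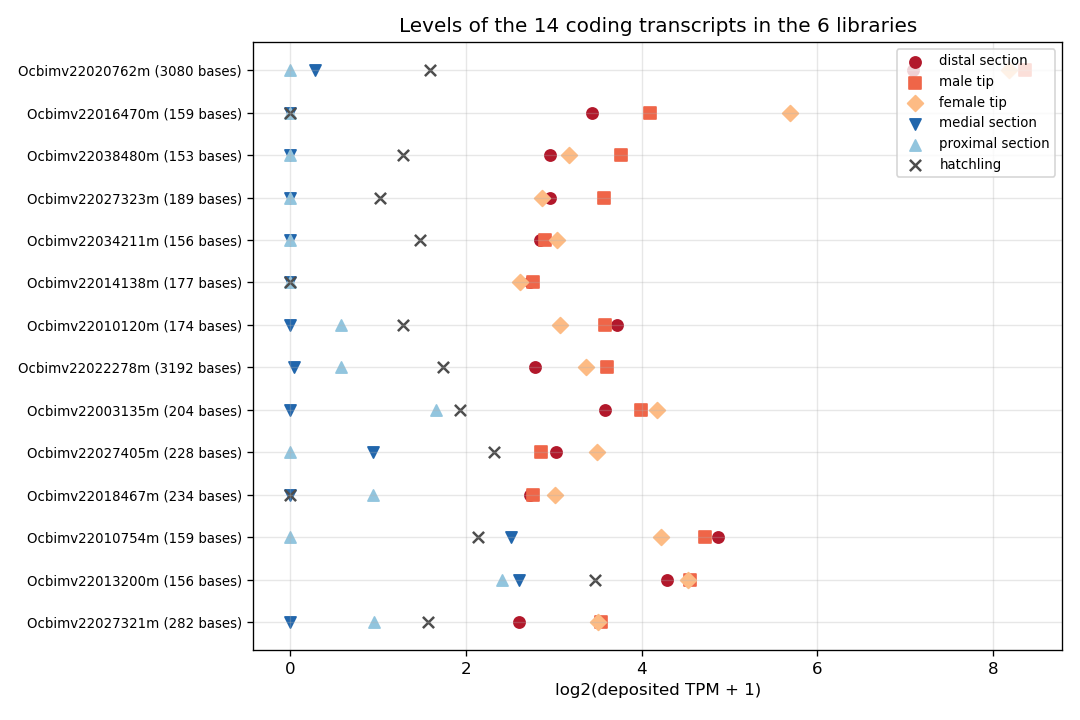
Level of each of the 14 transcripts (rows, with length) as log2 of the deposited TPM + 1, with 1 point per library. The distal section and both tips lie to the right of the medial and proximal sections in every row, because the transcripts were chosen for this, and the hatchling, which was not used in the choice, lies left of every arm end point.

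The members fell into 2 groups by length and read support. Ocbimv22020762m (3080 bases) and Ocbimv22022278m (3192 bases) were long and had at least 20 estimated counts in every arm end library. The other 12 were 153 to 282 bases long and had from 1.03 to 14.3 estimated counts in any arm end library. Transcripts under 300 bases were 85.7% of the members, against 13.1% of the 8949 coding transcripts with at least 5 TPM at the arm end and 14.4% of all coding targets. Among the 42 transcripts that were high in the inner sections, 14 were under 300 bases and 36 had at least 20 counts in both inner libraries.

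**Figure D2:**
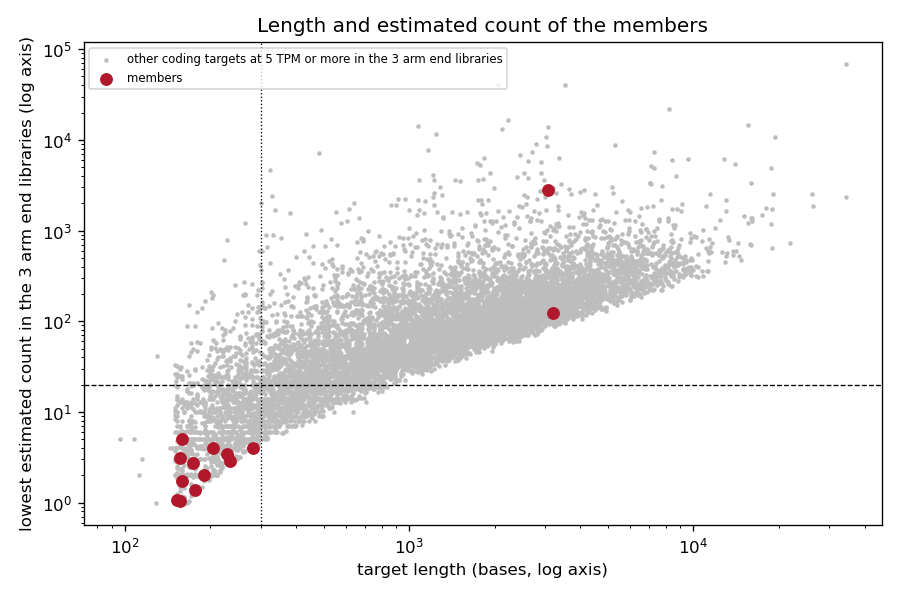
Target length in bases against the lowest estimated count in the 3 arm end libraries (both log axes), with members in red and the other coding targets with at least 5 TPM in those libraries in grey. The dotted line marks 300 bases and the dashed line 20 counts, and 12 of the 14 members lie in the corner of short, sparsely counted targets.

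Ocbimv22020762m was by far the most abundant member. It had 135.7 TPM in the distal section (95% Wilson interval 130.7 to 140.8), 329 TPM in the male tip (323 to 336) and 288 TPM in the female tip (283 to 294), against 0.217 TPM in the medial section (0.111 to 0.472), and 0.00029 TPM in the proximal section (0 to 0.115). The estimated counts behind these values were 2776, 10697 and 9458 in the arm end libraries, against 6.64 and 0.0099 in the medial and proximal sections. Its lowest arm end (TPM + 1) was 112 times its highest inner one, the largest ratio among the members. In the hatchling it had 2.00 TPM (1.70 to 2.37), from 137 estimated counts. The intervals of the libraries cover counting error only, and those of the arm end did not overlap those of the inner sections.

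The identifier of this transcript follows those of 2 transcripts of nearly the same length, Ocbimv22020760m (3081 bases) and Ocbimv22020761m (3033 bases). Consecutive identifiers of like length can be versions of 1 gene or near-identical copies, among which the quantification divides shared reads, and whether this is so here was not tested. Ocbimv22020761m had 608, 607 and 332 TPM in the distal section, male tip and female tip, against 918 and 999 TPM in the medial and proximal sections. Ocbimv22020760m had 671, 600 and 449 TPM in the same arm end libraries, against 766 and 779 TPM in the inner sections. On deposited TPM both neighbours were lower in each arm end library than in either inner section. This direction did not hold over coding targets only, where Ocbimv22020760m had 1835, 1561 and 1231 TPM at the arm end against 1271 and 1479 TPM in the inner sections, and Ocbimv22020761m had 1664, 1580 and 910 TPM against 1524 and 1896 TPM.

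Summed over the 3 identifiers, an alternative chosen after seeing the data, the level was 1415 TPM in the distal section, 1536 TPM in the male tip and 1069 TPM in the female tip, against 1684 and 1778 TPM in the medial and proximal sections. On this scale the sum was lower in every arm end library, and its ratio of (TPM + 1), lowest arm end over highest inner, was 0.602. Over coding targets only, the sum was 3870, 3999 and 2931 TPM in the distal section, male tip and female tip, against 2795 and 3375 TPM in the medial and proximal sections, so that the distal section and male tip were above both inner sections and the female tip between them. With TMM scaling it was 1477, 1504 and 964 against 1380 and 1632, and without the 10 most abundant targets 2781, 3020 and 2253 against 2576 and 2860. The order of the libraries in the sum thus changed with the scaling, with ratios of 0.591 to 0.869 under these alternatives. Under none of them was every arm end library above both inner sections. The share of the sum assigned to Ocbimv22020762m was 9.59%, 21.4% and 27.0% in the distal section, male tip and female tip, against 0.0129% and 1.66e-05% in the medial and proximal sections, and it was 0.225% in the hatchling. These shares do not depend on the scaling of a library.

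Ocbimv22022278m had the same form at a far lower level. It had 5.92 TPM in the distal section (4.98 to 7.08), 11.1 TPM in the male tip (10.0 to 12.4) and 9.28 TPM in the female tip (8.28 to 10.4), against 0.0309 TPM in the medial section (0.0058 to 0.186), and 0.497 TPM in the proximal section (0.312 to 0.801). The counts were 123, 349 and 294 at the arm end, against 0.942 and 16.9 in the medial and proximal sections. The hatchling had 2.34 TPM (2.02 to 2.73), above both inner sections and below all arm end libraries without overlap of the intervals. The study's lists place it in expression cluster 2.

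Its neighbours Ocbimv22022276m, Ocbimv22022277m and Ocbimv22022279m were 3141, 3306 and 3255 bases long. Ocbimv22022277m had 2.12, 5.28 and 10.7 TPM in the distal section, male tip and female tip, against 9.09 and 7.80 TPM in the medial and proximal sections, so its groups overlapped. Summed over the 4 identifiers, the level was 18.01 TPM in the distal section, 27.2 TPM in the male tip and 30.4 TPM in the female tip, against 16.2 and 20.4 TPM in the medial and proximal sections. These sums overlapped, since the distal section lay between the inner sections. Under the other scalings the sum was higher in every arm end library than in both inner ones, with a ratio of 1.27 over coding targets only, 1.003 with TMM scaling and 1.08 without the 10 most abundant targets. The member took 32.8%, 40.9% and 30.6% of the sum in the arm end libraries, against 0.190% and 2.44% in the medial and proximal sections, and 20.6% in the hatchling.

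**Figure D3:**
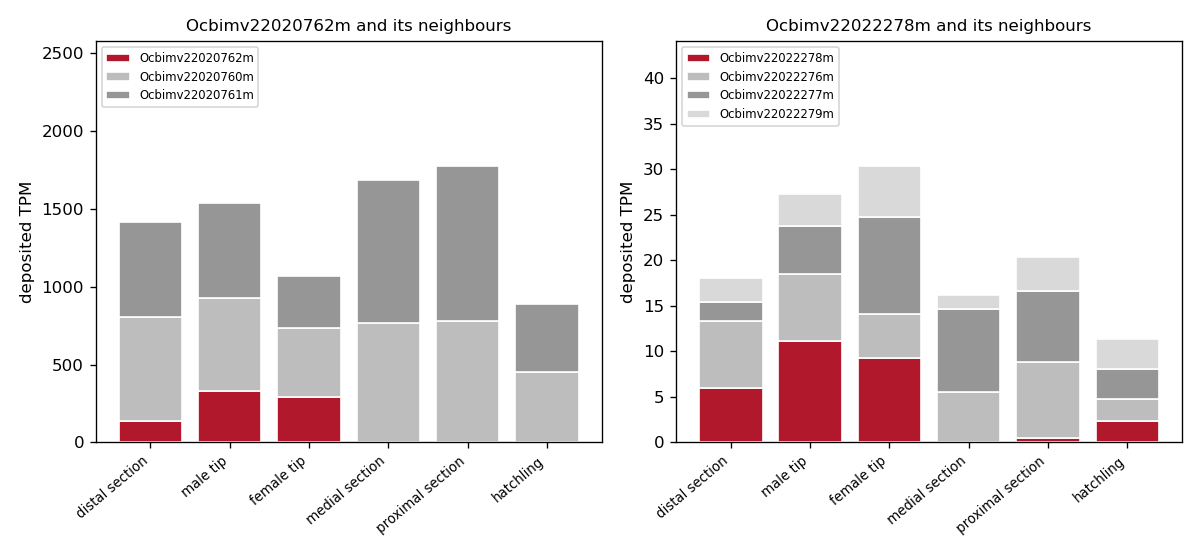
Deposited TPM in each library, stacked over Ocbimv22020762m (red, left) or Ocbimv22022278m (red, right) and the neighbouring identifiers of like length (grey). On deposited TPM the whole bars of the left panel are lower in the distal section and the tips (1069 to 1536 TPM) than in the medial and proximal sections (1684 and 1778 TPM), a direction that turns for the distal section and male tip over coding targets only, while the red part is visible only at the arm end; in the right panel the whole bars of the distal and inner sections overlap.

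The 12 short members rested on few reads. With effective lengths of 25.5 to 127 bases in the distal section, 1 estimated count there was worth 1.28 to 6.36 TPM, and for 5 of the 12 a single count came to 5 TPM or more. The effective lengths were smaller in the medial section, 21.0 to 102 bases, so that a count of 0 in an inner library allowed 2.83 to 15.4 TPM (3 counts). With inner counts under 3 set to 3, the ratio of (TPM + 1) was at least 3 in 2 of the 14 members, the long ones, and it ranged below that in all short ones. The 95% intervals of the arm end libraries lay above those of the inner libraries in the same 2 members only. For the short members a difference of every arm end library from both inner ones was thus not detectable at this depth.

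Pooled over libraries, the 12 short members had 170.4 estimated counts at the arm end, of 13019426 in those 3 libraries, against 6.34 in the medial and proximal sections, of 12897823. These pooled counts come from the values that chose the members. Both inner libraries were at 0 in 5 members, all short. No short member had more than 1.04 counts in an inner library.

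Ocbimv22027321m (282 bases) was the best counted of them, with 4, 13 and 13 counts in the distal section, male tip and female tip, against 0 and 1 in the medial and proximal sections. These are 5.10 TPM in the distal section (1.98 to 13.1), 10.6 TPM in the male tip (6.18 to 18.1) and 10.4 TPM in the female tip (6.07 to 17.8), against 0 TPM in the medial section (limit 3.18), and 0.944 TPM in the proximal section (0.167 to 5.35). The intervals of the tips lay above those of the inner sections, and that of the distal section overlapped them. The hatchling had 1.97 TPM from 5 counts.

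Ocbimv22016470m (159 bases) had the most uneven arm end, with 9.78 TPM in the distal section (3.10 to 41.2), 16.0 TPM in the male tip (5.65 to 37.4) and 50.5 TPM in the female tip (29.4 to 82.7), against 0 TPM in the medial section (limit 14.1) and the proximal section (limit 12.0). The female tip held 14.3 of its 20.5 arm end counts. It was also at 0 in the hatchling, where 0 allows up to 5.12 TPM.

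Ocbimv22003135m (204 bases) had 4, 8.49 and 10 counts at the arm end, against 0 and 1 in the medial and proximal sections. These are 10.96, 14.9 and 17.1 TPM in the distal section, male tip and female tip, against 0 and 2.15 TPM. Its neighbour Ocbimv22003136m (192 bases) had 4.71 TPM in the medial section, and the sum of both had a ratio of 2.10, under the limit.

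Ocbimv22010754m (159 bases) had 28.2, 25.4 and 17.6 TPM in the distal section, male tip and female tip, from 5, 7 and 5 counts, against 4.69 and 0 TPM in the medial and proximal sections, from 1 and 0 counts. Ocbimv22013200m (156 bases) had 18.5, 22.4 and 22.0 TPM at the arm end, against 5.10 and 4.34 TPM in the medial and proximal sections. With 10.1 TPM, from 5.61 counts, it was the highest member in the hatchling.

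Ocbimv22010120m (174 bases) had 12.1, 11.0005 and 7.40 TPM in the distal section, male tip and female tip, against 0 and 0.488 TPM in the medial and proximal sections. Its neighbour Ocbimv22010119m (168 bases) was much more abundant, with 123, 158 and 87.4 TPM at the arm end against 90.0 and 73.8 TPM in the inner sections. The sum of the pair was still higher in each arm end library than in both inner ones, but with a ratio of 1.05.

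Ocbimv22027323m (189 bases) had 2, 5 and 3 counts at the arm end and none in either inner section, which gave 6.76, 10.9 and 6.31 TPM in the distal section, male tip and female tip, with limits of 9.03 and 7.87 TPM in the medial and proximal sections. Its neighbour Ocbimv22027322m (186 bases) ran the other way, with 0, 2.66 and 0 TPM at the arm end against 3.30 and 5.76 TPM in the inner sections. Ocbimv22027405m (228 bases) had 7.17, 6.22 and 10.2 TPM at the arm end, against 0.917 and 0 TPM in the medial and proximal sections.

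Ocbimv22018467m (234 bases) had 5.63, 5.80 and 7.07 TPM in the distal section, male tip and female tip, against 0 and 0.927 TPM in the medial and proximal sections. The last members had the fewest reads, with 4.65 arm end counts in all for Ocbimv22034211m (156 bases), 5.60 for Ocbimv22014138m (177 bases) and 6.19 for Ocbimv22038480m (153 bases), and none in either inner section. Their levels at the arm end were 5.13 to 12.6 TPM, and the limits of 0 in the inner sections were 9.28 to 15.4 TPM, and in each of these members both limits exceeded the level in every arm end library.

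Estimated counts within 0.01 of a whole number in every library show no sign of reads divided among targets. Such counts were seen for 3 of the 14 members (Ocbimv22027321m, Ocbimv22027323m and Ocbimv22010754m, all short), against 42.1% of the 35735 coding targets with any count and 47.2% of those under 300 bases. These shares also take in targets with counts in only 1 library, and a library without reads was taken as whole. Every member had reads in at least 3 libraries, so the groups are not alike. In the other 11 members, both long ones included, at least 1 library had a fractional count. By the rule of consecutive identifiers whose lengths were within 10%, 6 of the 14 members had a neighbour of like length. In 1 of these 6, Ocbimv22014138m, the sum still passed the limits.

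Just inside the fold limit were Ocbimv22027321m (ratio 3.14), Ocbimv22013200m (3.20) and Ocbimv22010754m (3.27). Just outside were Ocbimv22014030m (2.97, 171 bases), Ocbimv22022802m (2.93, 6123 bases) and Ocbimv22030174m (2.88, 627 bases). Ocbimv22022802m had 5.43, 6.93 and 6.52 TPM in the distal section, male tip and female tip, against 1.19 and 1.19 TPM in the medial and proximal sections, from 201 to 395 counts at the arm end and 65.2 and 72.1 in the inner sections. A transcript better counted than any short member was thus left out by a narrow margin.

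The hatchling was the readout that the choice did not use. Of the 14 members, 1 reached 5 TPM in the hatchling, against 23.8% of all coding targets and 74.9% of those with at least 5 TPM in the arm end libraries. The latter were not matched to the members in level, length or count. Transcripts under 300 bases were 13.1% of them, against 85.7% of the members. The median hatchling level of the members was 1.88 TPM, or 1.52 as log2(TPM + 1), against 1.29 over all coding targets and 3.34 over those with at least 5 TPM at the arm end. The level was 0 in 3 members (Ocbimv22014138m, Ocbimv22016470m and Ocbimv22018467m), where 0 allows 1.80 to 5.12 TPM.

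In all 14 members the hatchling was lower than each arm end library, which was also the case for 62.7% of the 8949 coding transcripts with at least 5 TPM there. It was higher than both inner sections in 10 of the 14, against 15.4% of all coding targets, and at least 3 times both in 0, against 1.69%. The arm end and inner levels in these comparisons are those that chose the members, so low inner levels were fixed in advance. The hatchling levels of the short members came from 0 to 6.27 counts.

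The arm end libraries were also set against each other, by choosing transcripts on 2 of them and reading the third. Chosen on both tips alone, 170 coding transcripts passed, of which 14 (8.24%) also passed in the distal section, against 0.238% of the 10927 coding targets with at least 5 TPM in both tips. Of the 103 with at least 20 counts in both tips, 2 passed in the distal section and 77 were above both inner sections there. Over all 170, the distal section was above both inner sections in 115, against 20.3% of the 10927. The distal section, which comes from the same animal as the inner ones, was thus the library that limited the number of members.

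Without the male tip, 23 transcripts passed and 14 (60.9%) also passed in the male tip, against 1.34% of 9687. Of the 23, 19 were above both inner sections in the male tip, against 32.3%, and 2 of the 23 had at least 20 counts in both libraries used. Without the female tip, 31 passed and 14 (45.2%) also passed in the female tip, against 1.15% of 9367. Of these 31, 22 were above both inner sections in the female tip, against 36.7%, and 5 of the 31 had at least 20 counts in both libraries used. The shares held in the tips therefore rest mainly on sparsely counted targets. All these comparisons share the medial and proximal libraries, in which the chosen transcripts were low by construction. In each of them the transcripts that also passed are, by definition, the 14 members. The shares set beside them are over targets not chosen for low inner levels. The differences thus come in part from the choice and are no support for the members.

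The number of members depended on the scaling. With TPM recomputed over coding targets only, which raised coding levels at the arm end by 0.46 to 0.72 (log2) relative to the inner sections, 137 transcripts passed, including all 14, and 39 of the 137 had at least 20 counts in each arm end library. With TMM scaling 19 passed, including 13 of the 14 (all but Ocbimv22014138m). The ratio of Ocbimv22020762m was 121 to 274 and that of Ocbimv22022278m 4.93 to 8.84 under the other scalings. With 20 counts required in each arm end library, 2 passed under the scaling of the deposited files.

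**Figure D4:**
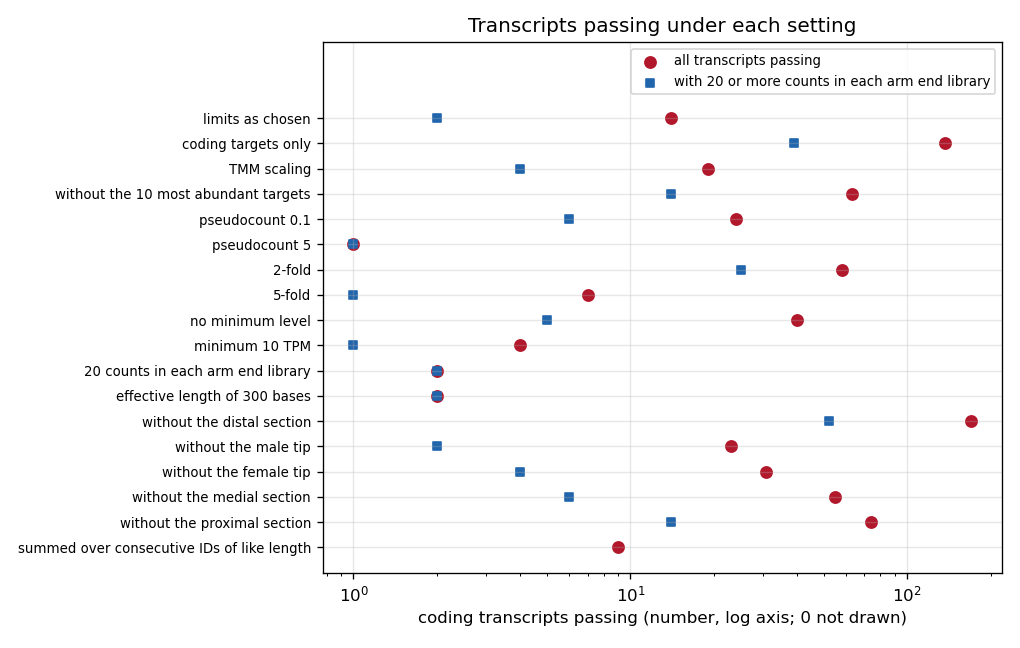
Number of coding transcripts passing (log axis) under the limits as chosen and under each other setting (rows), for all transcripts (red) and for those with at least 20 estimated counts in each arm end library (blue). The total ranges from 1 with a pseudocount of 5 to 170 without the distal section, against 14 as chosen.

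The study's expression clusters list 6 of the 14 members, with 4 in cluster 2 (Ocbimv22003135m, Ocbimv22010120m, Ocbimv22022278m and Ocbimv22027321m), 1 in cluster 5 (Ocbimv22027405m) and 1 in cluster 1 (Ocbimv22034211m). The paper describes clusters 2 and 5 as those of brain and nervous tissues. It reports a distinct set of transcripts of the distal arm segment in cluster 10, in which none of the 6 placed members is listed. Whether the shortened lists reach that cluster is not given here. The copy of these lists used here is shortened, so the other 8 were not placed. The share of each cluster among all listed transcripts is not given here, so the 4 in cluster 2 are no result about the members. The clusters were built with the same arm sections and are no independent readout. By the study's grouping of transcripts on their gene body methylation, Ocbimv22003135m is listed in pattern 4, the largest, which lacks methylated CpGs. The paper defined these patterns in adult brain (Supra Esophageal) and had no arm methylome, so the state in the arm is not given. The other members were not placed.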

How the data were processed

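Total RNA of 5 pieces of adult arm and 1 whole hatchling was depleted of ribosomal RNA and sequenced. The authors checked reads with FastQC 0.11.5 and trimmed them with Trimmomatic 0.36 (submitters' processing notes) and quantified annotated transcripts with kallisto, whose version is not given in the sources used here. By the paper's methods, the hatchling reads also went through Fastp, against poly-G tails and sequencer artifacts, a step not stated for the arm libraries. The deposited files give an estimated count, an effective length and TPM for each target, and the authors computed TPM from the other values. Kallisto divides reads that match several targets, so near-identical targets are uncertain.

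The members were taken from deposited TPM with a pseudocount of 1, a 3-fold limit and a minimum of 5 TPM. Members and gene lists were chosen with earlier results of these data known. Transcripts named were the members with the largest ratios and levels, those at the ends of the hatchling range and those nearest the fold limit, which together include all 14. Intervals are 95% Wilson intervals of rounded estimated counts, and 0 is given a limit of 3 counts. Neither covers more than counting error, since PCR copies were not marked. No p-value was computed. TMM factors came from edgeR 4.0.16 (R 4.3.3) on rounded counts, and other values from Python 3.11.15 with numpy 2.4.6, pandas 2.3.3, scipy 1.17.1 and matplotlib 3.10.9. The selection was tested on simulated data in which only transcripts with a mean of at least 20 counts in every library were raised. It says nothing about the short, sparsely counted members. Alternatives were other scalings, pseudocounts, folds, minimum levels, count and length limits, and leaving out each library. Names came from the study's annotation tables. RefSeq names (assembly ASM119413v2) matched no target.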

Additional observations from a re-analysis of the deposited data

How the results depend on the processing

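With 14 members as chosen, 137 passed over coding targets only, 63 without the 10 most abundant targets, 24 with a pseudocount of 0.1, 1 with a pseudocount of 5, 58 at 2-fold, 7 at 5-fold, 40 with no minimum level, 4 at a minimum of 10 TPM, and 2 with either 20 counts in each arm end library or an effective length of 300 bases. TMM scaling gave 19. Of the alternatives chosen after seeing the data, inner counts of under 3 set to 3 left 2 and summing consecutive identifiers of like length left 9 of the members. Leaving out 1 library at a time gave 23 to 170 transcripts, with 170 without the distal section, 23 without the male tip, 31 without the female tip, 55 without the medial and 74 without the proximal section. All 14 members were among each of these larger sets except under TMM scaling, which kept 13. Leaving out a library, 2-fold, no minimum level and a pseudocount of 0.1 only relax the limits, so no member could be lost. The same holds over coding targets only and without the 10 most abundant targets, which raised levels more at the arm end than in the inner sections.

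The number with at least 5 TPM in the hatchling, 1 of 14 as chosen, was 60 of 137 over coding targets only. It was 4 of 19 with TMM scaling and 21 of 63 without the 10 most abundant targets. These other scalings raised the hatchling levels, so that 5 TPM was an easier limit. The share of all coding targets reaching it under them is not given here, and the 23.8% on deposited TPM does not apply. On deposited TPM the number was 2 of 24 with a pseudocount of 0.1 and 17 of 58 at 2-fold. It was 0 with a pseudocount of 5, at 5-fold, with 20 counts, with an effective length of 300 bases and with inner counts of under 3 set to 3. With 1 library left out it was from 2 (of 23) to 48 (of 170). The number with the hatchling at least 3 times both inner sections (2 or 5 times where that was the fold) was 0 of 14 as chosen. It was 22 of 137 over coding targets only, 6 of 19 with TMM scaling and 16 of 63 without the 10 most abundant targets. It was 7 of 24 with a pseudocount of 0.1, 7 of 58 at 2-fold, 6 of 40 with no minimum level and 1 to 21 with 1 library left out. The median hatchling level, 1.52 as log2(TPM + 1), was 1.06 to 2.32 under the alternatives with a pseudocount of 1. With other pseudocounts it is on another scale, with 1.18 for a pseudocount of 0.1 and 2.81 for 5. The median counting limits of the members, 0.65 to 2.99, also hold the 1.29 of all coding targets. The sets differ in size and scaling, so these medians do not show that the level was stable. No paired analysis was possible because each condition is 1 library. Levels summed over annotated genes were not run, since the sources used here group no member into a gene.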

Other observations

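With no minimum level, 5 coding transcripts with at least 20 counts in each arm end library passed the 3-fold limit, of which 2 were members. The others, picked after their values were seen, are given as values. Ocbimv22034682m (5311 bases) had 3.56, 7.64 and 7.53 TPM in the distal section, male tip and female tip, against 0.0192 and 0.0072 TPM in the medial and proximal sections, from 106 to 363 counts at the arm end and 0.856 and 0.353 in the inner sections. Its neighbour Ocbimv22034683m (5360 bases) ran the other way, with 1.77, 3.39 and 4.16 TPM at the arm end against 7.55 and 5.41 TPM in the inner sections. Ocbimv22013377m (957 bases) had 5.08, 4.25 and 3.00 TPM at the arm end and no count in the inner sections. Its neighbour of like length, Ocbimv22013378m (915 bases), had 0, 2.01 and 1.12 TPM at the arm end against 1.52 and 1.73 TPM in the inner sections. Ocbimv22004552m (2023 bases), which has no neighbour of like length and whole counts in every library, had 57, 115 and 135 counts (4.72, 6.004 and 7.02 TPM) in the distal section, male tip and female tip, against 13 and 16 counts (0.734 and 0.827 TPM) in the medial and proximal sections. Its hatchling level was 1.01 TPM.

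The members Ocbimv22027321m and Ocbimv22027323m lie in a run of identifiers of which several were higher at the arm end. Of the 8 identifiers from Ocbimv22027318m to Ocbimv22027325m, 5 were higher in every arm end library than in both inner ones, against 10.1% of all coding targets. These 5 include both members, for which the choice fixed this. The run was chosen after its values were seen, and it begins and ends at identifiers that were higher. The difference from 10.1% was thus partly fixed in advance, and identifiers are no map of the genome. Ocbimv22027318m (1410 bases) had 36, 155 and 162 counts (4.47, 12.2 and 12.7 TPM) in the distal section, male tip and female tip, against 15 and 28 counts (1.27 and 2.17 TPM) in the medial and proximal sections. Ocbimv22027325m (485 bases) had 6.66, 8.99 and 7.09 TPM at the arm end, against 1.91 and 2.85 TPM in the inner sections.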
